A study of Mus musculus with 13 samples.

Results

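The junctions described here joined a fixed DNA break in the switch region S gamma 1 of the mouse immunoglobulin heavy chain locus to the window around a partner break near S mu, 87.5 kb away on chromosome 12, and read along the + strand there. A junction was taken where it lay on chromosome 12 (mm9) within 10 kb of the peak of pooled junctions at the partner break, on the + strand. This gave 1513 of the 6878 junctions of the 6 heavy chain libraries, and of the 16455 junctions of all 13 libraries. That peak lies in the I-SceI site from 114664485 to 114664502, and because pooled junctions placed the window, their crowding at the peak is a description and was not tested. The lowest of the 1513 lay at 114655226 and the highest at 114670211. The nearest + strand junctions outside the window lay at 114654269 and 114677117.

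I-SceI is a homing endonuclease of yeast with a long recognition site, and it leaves ends with short 3′ overhangs. High-throughput genome-wide translocation sequencing (HTGTS) amplifies from 1 such break, the bait, and reads what was joined to it, the prey. In activated B cells, class switch recombination joins S mu to a downstream switch region. AID, the cytidine deaminase that starts this process, acts on transcribed switch repeats rich in the motif AGCT, and the breaks are then joined by end joining with loss of the DNA between them. T cells do not switch, so a pair of fixed breaks in both cell types allows long-range joining to be compared with and without that process.

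The study asked how often fixed breaks at a distance from each other join in different cell types. All 6 libraries carried the genotype written IgH2-28xI. The B-cell libraries came from splenic B cells activated with anti-CD40 and IL-4, and the T-cell libraries from splenic T cells activated with ConcanavalinA and IL-2. Each group had 3 libraries, numbered 19, 21 and 23. How I-SceI was supplied, and the strain and age of the mice, are not given in the labels. The labels do not say that libraries came from separate animals or cultures, so p-values here measure the spread between libraries. No expression was measured, and the cell types could not be checked against markers. The read names place numbers 19 and 21 on one sequencing run and number 23 on another.

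Total junctions were 933, 1115 and 483 in the B-cell libraries 19, 21 and 23, and 1253, 2707 and 387 in the T-cell libraries. The values that follow are in the same order. Positions are those of the first prey base, counted from 1, which is 1 above the deposited junction position on this strand. Libraries numbered 23 were placed 1 bp higher than the others above the cassette, and this was corrected.

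The partner break is a cassette with 2 I-SceI sites in opposite directions. It is shown because most joins described here start in or just above it, with the sites in capitals (chr12:114664484-114664524, + strand, in the deposited references, which are based on mm9 and hold the cassette):
partner break: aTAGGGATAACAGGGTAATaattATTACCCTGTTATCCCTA
Cutting site 1 (114664485 to 114664502) exposes an upper end at which a + strand prey can start from 114664490 to 114664494, depending on how much of the 4-base overhang is kept. For site 2 (114664507 to 114664524) the matching starts are 114664516 to 114664520. Prey starting above these ends lack the sequence between the cut and the join.

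The next sequences carry no site. The first begins at the start in mouse sequence above the cassette (chr12:114664725-114664784) that was shared by the most joins, 4 in all. The second (chr12:114660950-114661009) begins at the start that 2 joins labelled Smu shared, in the mouse sequence next to the cassette on its lower side:
above the cassette: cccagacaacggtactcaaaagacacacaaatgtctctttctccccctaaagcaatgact
labelled Smu: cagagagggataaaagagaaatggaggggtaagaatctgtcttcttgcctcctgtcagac

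Joins labelled trans Smu lay in a stretch that holds switch repeats. They are shown for 1 join of each B-cell library with AGCT in capitals (chr12:114663547-114663606 in library 19, chr12:114663571-114663630 in library 21 and chr12:114662853-114662912 in library 23):
trans Smu, B 19: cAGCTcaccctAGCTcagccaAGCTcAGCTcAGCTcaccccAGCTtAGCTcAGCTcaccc
trans Smu, B 21: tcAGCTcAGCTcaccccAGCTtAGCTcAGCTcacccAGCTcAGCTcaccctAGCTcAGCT
trans Smu, B 23: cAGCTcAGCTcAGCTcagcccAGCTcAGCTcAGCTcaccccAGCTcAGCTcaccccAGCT
These stretches hold 8, 9 and 9 copies of AGCT in 60 bases, and most other trans Smu joins held fewer. The join at 114663358 held 9. Those at 114663644, 114663656, 114663659, 114663785 and 114663993 held 3, 2, 2, 1 and 1. The 2 stretches above, next to the cassette, hold none.

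The gene labels go against a description of these junctions as joins to S mu. Of the 1513, 876 (57.9%) were labelled 2x cassette, 620 had no label, 8 were labelled Smu and 9 trans Smu. Cassette labels stood on 174, 164 and 76 joins of the B-cell libraries and on 167, 252 and 43 of the T-cell libraries. Joins without a label numbered 80, 101 and 43 in B cells and 106, 257 and 33 in T cells. The junctions are therefore called partner joins below.

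Partner joins on the + strand numbered 261, 269 and 122 in B cells and 274, 510 and 77 in T cells. They made up 28.0%, 24.1% and 25.3% of the B-cell libraries and 21.9%, 18.8% and 19.9% of the T-cell libraries. All B-cell libraries were higher than all T-cell libraries, at 25.8% ± 1.98 (SD, n = 3) against 20.2% ± 1.54 (SD, n = 3). The difference was 5.58 percentage points (two-sided exact permutation p = 0.1, adjusted p = 0.333 over 10 tests). With 3 against 3 libraries 0.1 is the smallest possible p. It was 5.70 points on the run of 19 and 21 and 5.36 on the run of 23. With 1 junction per position and strand it was 1.90 points (p = 0.3 by exact permutation). Without junctions around the bait in the denominator the difference turned to -2.36 points, T cells being higher (exact permutation p = 0.5), so no direction holds for this share. On the - strand the window held 137, 140 and 77 joins in B cells and 201, 447 and 71 in T cells, 1073 in all.

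A + strand prey at the partner break reads towards higher coordinates. Around the bait, 3074 of 3552 junctions (86.5%) were on the + strand and 2918 of those lay above the bait peak. The direction of the bait primer is not given in the labels. If the bait reads upward, a + strand partner join has both sequences in one direction, the arrangement that deletion of the DNA between the breaks leaves.

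Joins within 100 bp of the peak numbered 156, 146 and 67 in B cells and 153, 224 and 39 in T cells, 785 in all. They were 59.8%, 54.3% and 54.9% of + strand partner joins in B cells and 55.8%, 43.9% and 50.6% in T cells. The groups overlapped, with T-cell library 21 lowest, at a B-cell mean of 56.3% ± 3.004 (SD, n = 3) and a T-cell mean of 50.1% ± 5.98 (SD, n = 3). The difference was 6.18 points and not beyond that of other divisions of the libraries (exact permutation p = 0.3, adjusted p = 0.5). It was 7.14 points on the run of 19 and 21, 4.27 on that of 23 and 3.08 without T-cell library 21. Within numbers 19, 21 and 23 it was 3.93, 10.4 and 4.27 points, higher in B cells in all 3 pairs (exact sign-flip permutation p = 0.25, the smallest that 3 pairs allow). Within 20 bp of the peak the difference was 12.9 points, with no overlap (exact permutation p = 0.1). That limit leaves out the upper end of site 2, where B minus T was -0.374 points, so it does not cover both cuts. Counting 1 junction per position and strand gave 3.31 points (exact permutation p = 0.6).

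Joins more than 100 bp above the peak, whose prey lacks that much sequence or more, made up 30.7%, 34.6% and 31.97% in B cells and 34.3%, 47.6% and 39.0% in T cells. B-cell library 21 was higher than T-cell library 19, so the groups overlapped. The means were 32.4% ± 2.00 (SD, n = 3) and 40.3% ± 6.77 (SD, n = 3), a difference of -7.91 points (exact permutation p = 0.2, adjusted p = 0.5). The difference was -4.24 points without T-cell library 21. With 20 bp as the limit, which counts the upper end of site 2 as above the peak, the difference was -14.7 points. Within numbers 19, 21 and 23 the difference at the 100 bp limit was -3.66, -13.1 and -6.99 points, again of the same sign in all 3 pairs (exact sign-flip permutation p = 0.25). Joins more than 100 bp below the peak numbered 25, 30 and 16 in B cells and 27, 43 and 8 in T cells. Their shares overlapped, with means of 11.3% ± 1.77 (SD, n = 3) and 9.56% ± 1.01 (SD, n = 3). The difference was 1.72 points (exact permutation p = 0.3, adjusted p = 0.5), and 0.807 without B-cell library 23 or 3.36 with 1 junction per position and strand.

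The 1513 joins were then divided into 7 stretches by the features of the cassette. These stretches were drawn after the positions had been seen, so their shares are given as descriptions, without p-values. From low to high coordinates they are the sequence below the cassette, the start of site 1, the upper end of site 1, the bases between the ends, the upper end of site 2, the cassette beyond the ends and the mouse sequence above.

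At the upper end of site 1 lay 78 joins on 5 bases, or 15.6 per base. They made up 7.28%, 8.55% and 11.5% of the B-cell libraries and 4.01%, 1.76% and 2.60% of the T-cell libraries. All B-cell libraries were above all T-cell libraries, at 9.10% ± 2.15 (SD, n = 3) against 2.79% ± 1.14 (SD, n = 3). The difference was 6.31 points in all, 5.03 on the run of 19 and 21 and 8.88 on the run of 23. With 1 junction per position and strand, where a stretch of 5 bases can count at most 5 times in a library, it was 1.57 points. The most used start there was the last base of the overhang, with 26 joins, namely 7, 7 and 6 in B cells and 3, 2 and 1 in T cells.

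The bases between the ends held 197 joins, 9.38 per base, which a cut at both sites would remove from the upper end. Their shares were 14.9%, 17.8% and 12.3% in B cells and 10.9%, 11.96% and 5.19% in T cells. Here too the groups stood apart, at 15.0% ± 2.78 (SD, n = 3) and 9.37% ± 3.65 (SD, n = 3). The difference was 5.66 points, and 3.57 without T-cell library 23.

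The upper end of site 2 held 104 joins on 5 bases, the highest density at 20.8 per base. Shares were 8.43%, 7.43% and 5.74% in B cells and 9.12%, 4.51% and 9.09% in T cells. These overlapped, and the difference of -0.374 points changed sign when B-cell library 23, T-cell library 19 or T-cell library 23 was left out. The starts 114664516 and 114664520 were among the 5 most used, with 21 and 24 joins. The first held 3, 5 and 3 joins in B cells and 5, 3 and 2 in T cells. The second held 5, 5 and 2 in B cells and 4, 6 and 2 in T cells.

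**Figure D1:**
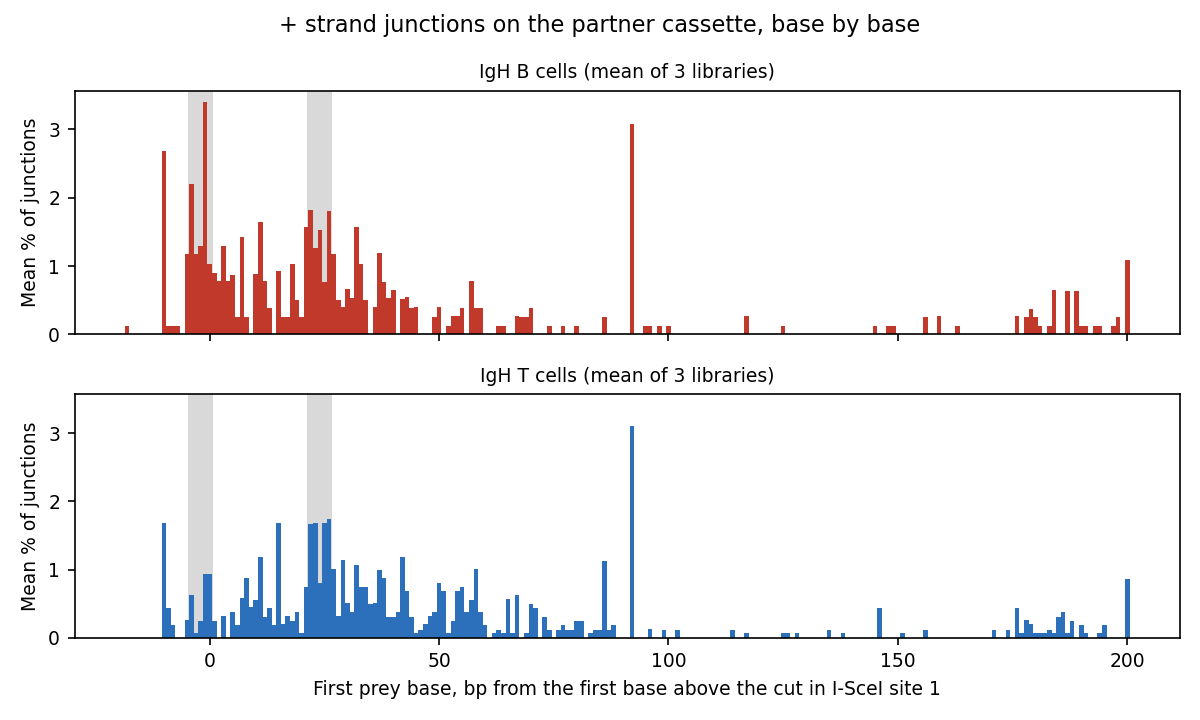
Share of + strand partner joins at each first prey base across the cassette (vertical axis, mean percent of 3 libraries) against its distance in bp from the first base above the cut in I-SceI site 1 (horizontal axis), with B cells in the upper panel and T cells in the lower. Grey bands mark the 5 possible starts at the upper end of site 1 and of site 2; the B-cell bars in the left band stand higher than the T-cell bars, and the isolated bar on the right in both panels is the start with 29 joins in sequence that the bait also holds.

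The remaining cassette sequence above the ends held 444 joins, 2.55 per base. Shares were 31.0%, 22.3% and 28.7% in B cells and 34.3%, 28.6% and 36.4% in T cells. The B-cell mean was 27.3% ± 4.52 (SD, n = 3) and the T-cell mean 33.1% ± 4.01 (SD, n = 3), with overlap, and the difference was -5.76 points, or -3.24 without B-cell library 21 and -2.18 with 1 junction per position and strand. One of its starts, 114664586, had the highest mean share of all starts over the 6 libraries, 3.08%, from 29 joins. That rank rests on T-cell library 23, without which its mean was 1.88%, below the 2.36% of 114664484 and the 2.34% of the last overhang base of site 1. These were spread as 6, 12 and 3 in B cells and 0, 1 and 7 in T cells, and they had only 2 far ends between them. In 22 of the 29 reads a further copy of bait sequence was found, and the prey there lies in loxP sequence that the bait also holds. A join to the partner and a join of bait to bait therefore cannot be told apart at that start. In all, 32 of the 1513 reads held such a copy, namely 12, 11 and 2 in B cells and 1, 1 and 5 in T cells.

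The start of site 1 held 52 joins, at shares of 4.98%, 4.83% and 3.28% in B cells and 2.55%, 2.55% and 2.60% in T cells. The B-cell libraries were higher, by 1.80 points on average and by 0.713 with 1 junction per position and strand. Of the 52 joins, 34 lay at 114664484, the base before the site. That start held 9, 8 and 2 joins in B cells and 6, 8 and 1 in T cells, with 28 different far ends. In 23 of the 34 reads I-SceI site or further bait sequence stood between the bait and the prey. The site is present in the bait cassette as well, so the source of these bases cannot be told from the read.

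**Figure D2:**
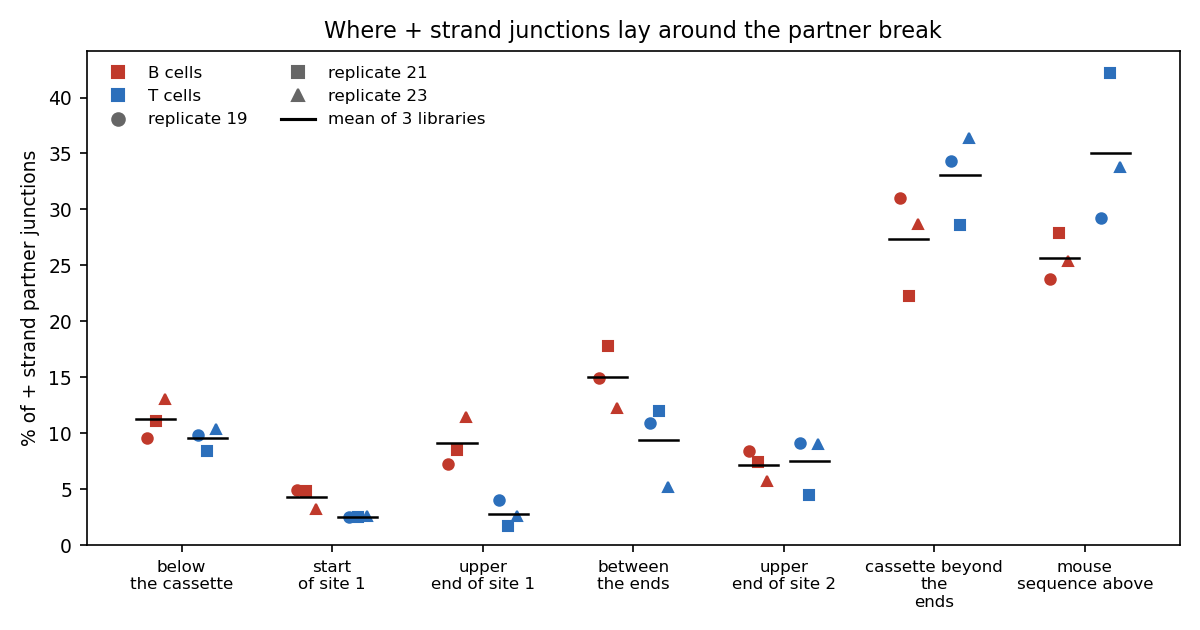
Percent of + strand partner joins (vertical axis) in each of 7 stretches around the partner break (horizontal axis), with 1 point per library, B cells in red, T cells in blue, marker shapes for replicate numbers and a line at the mean of 3 libraries. At the upper end of site 1 the B-cell libraries sit between 7.28% and 11.5% and the T-cell libraries between 1.76% and 4.01%, while at the upper end of site 2 they overlap.

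Mouse sequence above the cassette held 489 joins at 419 different starts. Its shares were 23.8%, 27.9% and 25.4% in B cells and 29.2%, 42.2% and 33.8% in T cells. Every T-cell library was above every B-cell library, at 35.0% ± 6.57 (SD, n = 3) against 25.7% ± 2.08 (SD, n = 3). The difference was -9.36 points, -9.86 on the run of 19 and 21, -8.36 on that of 23 and -5.80 without T-cell library 21. Shares within a library sum to the whole, so the differences of the 7 stretches are not independent of each other.

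These joins were spread thinly. No start held more than 2 joins of a library, and the most over all libraries was 4. The farthest lay 5517 bp above the cassette. In the first 500 bp lay 176 joins, then 83 up to 1000 bp, 128 up to 2000 bp, 96 up to 5000 bp and 6 beyond. The first 500 bp held 43.5%, 40.0% and 51.6% of those of B cells and 31.2%, 33.0% and 26.9% of those of T cells, without overlap. Of the starts used, 32 were used in both cell types, which is 20.6% of the 155 of B cells and 10.8% of the 296 of T cells. In the cassette 83 starts were used in both, 83.0% of the 100 of B cells and 66.9% of the 124 of T cells.

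The median distance of joins more than 100 bp above the peak was 517, 683 and 523 bp in B cells and 1078, 1002 and 1010 bp in T cells. The joins of every B-cell library thus lay nearer to the break by this measure. Means were 574 bp ± 94.2 (SD, n = 3) and 1030.0 bp ± 41.8 (SD, n = 3), and the difference was -456 bp (exact permutation p = 0.1, adjusted p = 0.333). It was -440.0 bp on the run of 19 and 21, -487 bp on that of 23 and -510.0 to -427 bp with a library left out. The value depends on where counting starts, since it was -22.7 bp when joins beyond 20 bp were taken and -276 bp beyond 500 bp (exact permutation p = 1.0 and 0.8). Counted from the upper limit of the cassette, the medians were 879, 823 and 440.0 bp in B cells and 1148, 912 and 1296 bp in T cells. The B-cell libraries were again lower than the T-cell libraries, with B-cell library 19 and T-cell library 21 close to each other. Median prey lengths were 99, 107 and 67.5 bp in B cells and 90.5, 134 and 61 bp in T cells, and their part in these distances was not tested.

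**Figure D3:**
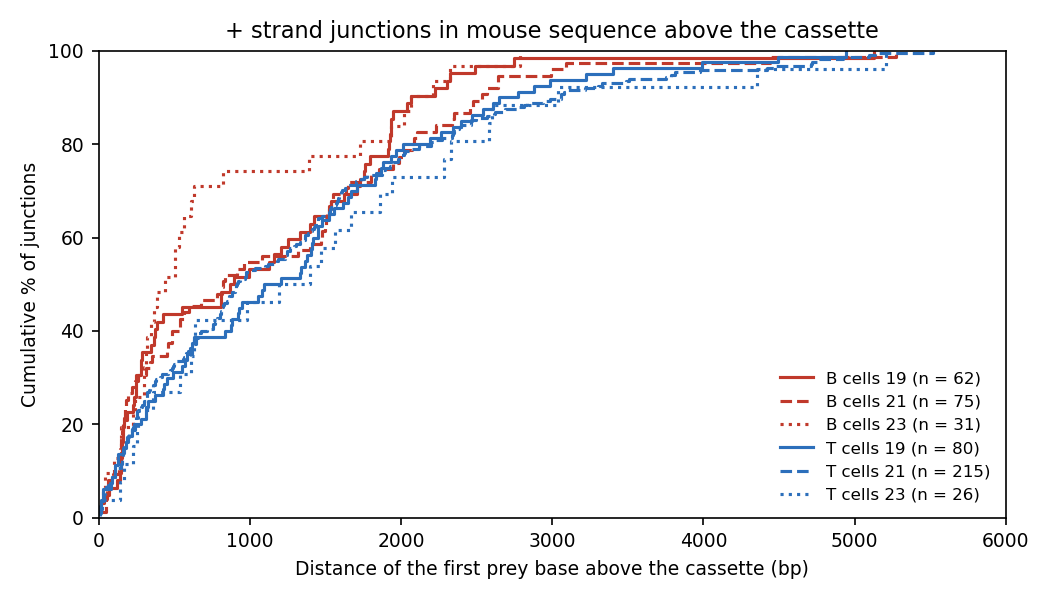
Cumulative percent of + strand joins in mouse sequence above the cassette (vertical axis) against the distance of their first prey base from the cassette in bp (horizontal axis), 1 line per library, with n joins in the legend. The B-cell lines (red) pass 40.0% or more at 500 bp and the T-cell lines (blue) 33.0% or less, and B-cell library 23, with 31 joins, stands apart on the left.

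Below the cassette, 149 prey read upward towards the break. The 8 joins labelled Smu are among these and start between 114660727 and 114661016. They numbered 4, 1 and 0 in B cells and 1, 1 and 1 in T cells, so the label was not particular to B cells. Their shares, 0.635% ± 0.799 (SD, n = 3) and 0.620% ± 0.594 (SD, n = 3), differed by 0.0149 points (exact permutation p = 0.9, adjusted p = 0.9). The sign of this difference changed without B-cell library 19, T-cell library 19 or T-cell library 21. All 8 prey ran from mouse sequence directly into cassette sequence, against 0 of the 131 unlabelled joins of the same stretch. In 6 of the 8 the prey ended within 4 bases of the cut in site 1. The last bases of these prey are shared with the start of the adapter, which leaves the exact end uncertain by a few bases.

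In the deposited coordinates the mouse sequence of these prey and the cassette lie 3459 bp apart, although the reads join them directly. In that interval, from 114661017 to 114664475, lay 10 joins, 9 labelled trans Smu and 1 labelled 2x cassette. Distances below the break taken from coordinates therefore exceed those on the chromosome with the cassette. The other 131 joins and these 8 started between 114655226 and 114661016, 72 of the 139 within 1000 bp of the upper limit of that range and 31 within 300 bp. They used 127 different starts.

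In the interval from 114661017 to 114664475, called the S mu stretch below, lay 10 joins. They were 3, 3 and 4 in the B-cell libraries, or 1.15%, 1.12% and 3.28% of partner joins, and 0 in each T-cell library. The B-cell mean was 1.85% ± 1.24 (SD, n = 3). For T cells, 0 of 861 allows a share of up to 0.348% from 3 counts, and 0 of 274, 510 and 77 allows up to 1.09%, 0.588% and 3.90% in single libraries. The pooled B-cell count was 10 of 652. Pooled values treat single joins as independent and leave out the spread between libraries, and 510 of the 861 T-cell joins were of library 21. The lower 95% Wilson bounds of the B-cell libraries were 0.392%, 0.380% and 1.28%. Each was below the limit of the T-cell library with the same number. T-cell library 23 alone could not have shown the B-cell level at its depth. The S mu joins were picked out by their sequence after their positions had been seen, and no test is given.

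Of the 10, 9 were labelled trans Smu, at 114662853 to 114663993, and 1 of B-cell library 23 at 114663805 was labelled 2x cassette, although its reference overlapped that of a trans Smu join. In B-cell library 23 the joins at 114662853 and 114663358, 505 bp apart, had the same bait end and the same first 72 prey bases. Whether they are the same join placed apart in repeats cannot be told from the reads. Counted as 1, they would leave 9 joins of 651 in B cells. Positions within the repeats are uncertain for this reason.

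AGCT was searched in the first 20 prey bases, a word that is its own reverse complement. Of the 10 joins in the S mu stretch, 7 held it. Of all 728 joins more than 100 bp from the peak, 57 (7.83%) held it, against 1391 of 11601 stretches of 20 bases (11.99%) in the references over the window. The reference stretches include the switch repeats, while only 10 of the 728 joins lay in the S mu stretch. Joins and reference stretches are therefore not a like comparison. Shares were 8.57%, 8.13% and 7.27% in B cells and 7.44%, 8.04% and 5.26% in T cells. These overlapped and differed by 1.08 points (exact permutation p = 0.4, adjusted p = 0.5). The difference was 0.251 points without T-cell library 23 and -2.76 with 20 bp as the limit. Apart from the S mu stretch, 16 of 273 joins of B cells (5.86%) held the word. The words GAGCT or GGGGT, on either strand, stood in 30 of the 728 (4.12%), in 10.8% of the reference stretches and in 8 of the 10 S mu joins. A match is a description of these letters only.

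The structure of the join could be read in 1326 of the 1513, of which 562 were of B cells and 764 of T cells. In 30 of the other joins the bait was not recognised, and in 157 I-SceI site or bait sequence stood between bait and prey. Microhomology, bases at the join that both partners hold, was found in 696, inserted bases in 441, and neither in 189, called blunt. The median microhomology was 2 bases, 641 of the 696 (92.1%) had 1 to 4 bases, and the longest was 21. Overlaps of 1, 2, 3 and 4 bases numbered 172, 267, 142 and 60. Insertions had a median of 5 bases, with 94 of 1 base and 150 of 10 or more.

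Microhomology was found in 55.5%, 45.0% and 54.1% of classified joins of B cells and in 60.8%, 48.8% and 60.3% of those of T cells. The groups overlapped, and library 21 was the lowest of each. The difference was -5.12 points (exact permutation p = 0.4, adjusted p = 0.5), and -1.88 without B-cell library 21. Within numbers 19, 21 and 23 B minus T was -5.36, -3.76 and -6.24 points, lower in B cells in all 3 pairs (exact sign-flip permutation p = 0.25, the smallest that 3 pairs allow). Insertions made up 29.1%, 40.3% and 26.1% in B cells and 24.5%, 39.0% and 27.9% in T cells. Library 21 was the highest of each group here, and the difference of 1.34 points was within the spread (exact permutation p = 0.7, adjusted p = 0.778). Its sign changed without B-cell library 21 or T-cell library 19.

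Blunt joins were 15.5%, 14.7% and 19.8% in B cells and 14.7%, 12.2% and 11.8% in T cells. Every B-cell library was above every T-cell library, by a narrow margin between B-cell library 21 and T-cell library 19. The means were 16.7% ± 2.76 (SD, n = 3) and 12.9% ± 1.58 (SD, n = 3), and the difference was 3.78 points (exact permutation p = 0.1, adjusted p = 0.333). It was 1.64 points on the run of 19 and 21, 8.06 on that of 23 and 2.20 without B-cell library 23.

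**Figure D4:**
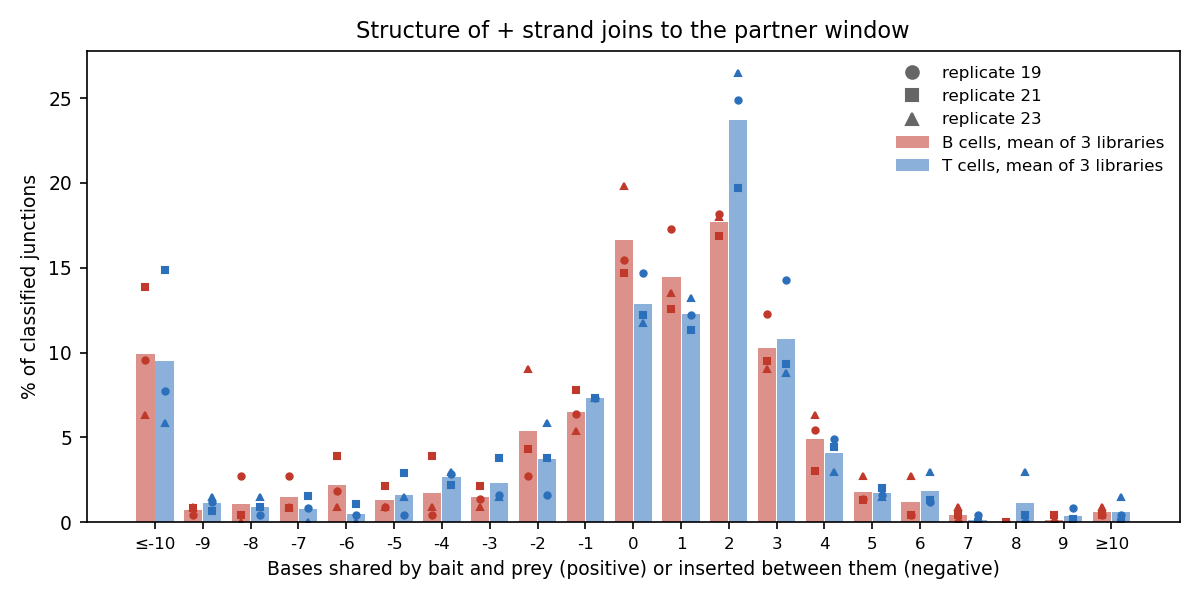
Percent of classified + strand partner joins (vertical axis) by the number of bases shared by bait and prey (positive), inserted between them (negative) or neither (0) on the horizontal axis, with bars at the mean of 3 libraries and points for single libraries, B cells in red and T cells in blue. Overlaps of 1 to 4 bases carry most of the microhomology in both cell types, and at 0 the B-cell libraries run from 14.7% to 19.8% and the T-cell libraries from 11.8% to 14.7%.

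Structure differed along the partner. At the upper end of site 1, 24 of 65 classified joins (36.9%) were blunt, and in mouse sequence above the cassette 42 of 441 (9.52%). Between the ends, at the upper end of site 2 and in the cassette beyond, blunt shares were 19.8%, 16.5% and 13.6%. Below the cassette the blunt share was 12.9%, and at the start of site 1 it was 8.70%, from 23 classified joins. Microhomology made up 51.1% below the cassette, 39.1% at the start of site 1, 41.5% at its upper end and 48.0% between the ends. At the upper end of site 2 it made up 46.2%, in the cassette beyond 51.5% and in mouse sequence above 59.2%. The upper end of site 1 thus had the highest blunt share of the 7 stretches and mouse sequence above the highest microhomology share. These shares pool the libraries and carry no test.

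On the - strand of the same window a smaller share of joins lay within 100 bp of the peak by the deposited coordinates. The share within 100 bp was higher on the + strand in each library, by 25.5, 18.6 and 43.2 points in B cells and 29.0, 19.98 and 49.2 points in T cells. The largest differences were in the libraries numbered 23. The mean was 30.9 points (two-sided exact sign-flip permutation p = 0.031, the smallest 6 libraries allow, adjusted p = 0.0625 over 4 tests). With 1 junction per position and strand it was 22.1 points (exact permutation, adjusted p = 0.0417), and with 20 bp as the limit it was 1.32 points (exact permutation p = 0.75). The 100 bp limit does not treat the strands alike. The cassette runs from 114664476 to 114664694, so above the cut it covers more than 100 bp. Just below it the coordinates jump 3459 bp to the mouse sequence. A - strand prey reads downward, and where it lacks the short cassette stretch below the cut it is placed beyond that jump. The p-value at 100 bp does not separate joining from this placement, whose part in the difference was not tested.

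Blunt joins were also more frequent on the + strand in all 6 libraries, by 6.36, 8.05 and 12.9 points in B cells and 6.22, 2.55 and 2.39 points in T cells. The mean was 6.41 points (exact sign-flip permutation p = 0.031, adjusted p = 0.0625), and 5.98 with 1 junction per position and strand (exact permutation, adjusted p = 0.0417). Structure differed along the partner, with pooled + strand blunt shares of 36.9% at the upper end of site 1 and 9.52% in mouse sequence above. The strands were also placed differently around the peak. The structure tests between strands do not separate strand from position, whose part was not tested. Microhomology was lower on the + strand in 5 of 6 libraries, by -4.99 points on average (exact permutation p = 0.0938, adjusted p = 0.125). Without replicate 21 that mean was -3.01 points. Insertions differed by -1.42 points (exact permutation p = 0.5), a difference that changed sign without replicate 23.

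Joins with the position and strand of an earlier one in their library numbered 493, namely 103, 102 and 31 in B cells and 83, 162 and 12 in T cells. Only 52 also shared the far end of the prey, 16, 17 and 3 in B cells and 3, 7 and 6 in T cells. Partner joins on the + strand that were identical between libraries numbered at most 1 for any pair, except 3 between T-cell libraries 19 and 21. Over all deposited lines of these libraries the pairs shared 0 to 45, the most between the same T-cell libraries.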

How the data were processed

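HTGTS junctions of 3 B-cell and 3 T-cell libraries were used. Each deposited line is a read, with prey coordinates, strand, aligned sequences and gene label (other kinds of value, per the file headers), and with the alignment score that the authors deposited, at least 30 here. The submitters' processing notes name mm9. Which aligner and filters were used is not given in the sources used here. The members, stretches and measures were chosen with earlier results of these data known.

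Lines were counted as deposited, with Python 3.11.15, numpy 2.4.6, pandas 2.3.3, scipy 1.17.1 and matplotlib 3.10.9. Repeated words of 24 bases gave the offset between references. The bait was traced on each read from an anchor of 18 bases, and overlap or insertion was read against the prey start. Lines with 8 bases of an I-SceI site or 12 of bait between them were not classified. Reading of joins and the permutation test were tested on simulated data.

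B and T libraries were compared by exact permutation of the library labels, two-sided, and strands by exact sign-flip permutation tests within libraries, with Benjamini-Hochberg adjustment over 10 and 4 tests. Named positions are the 5 with the highest mean share. Same-numbered B and T libraries deviated together over 12 bins of position (r = 0.471, 0.474 and 0.224, other pairs -0.310 to -0.045), so the numbers were taken as pairs in an alternative. Depth was 387 to 2707 junctions per library. Limits for a count of 0 cover counting error only.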

Additional observations from a re-analysis of the deposited data

How the results depend on the processing

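Of 240 recomputed values, 222 kept direction and side of the threshold, 15 turned in direction and 3 passed an adjusted p of 0.05. The replicate block (B minus T within numbers 19, 21 and 23) gave 5.58 points for the share of + strand joins in a library. Its p was 0.25 by exact sign-flip permutation, the smallest 3 pairs allow, so it could change no call. With 1 junction per position and strand, + minus - strand was 22.1 points at the break, 5.98 for blunt joins and -9.90 for microhomology, each past the threshold, and 3.92 for insertions, reversed. The 22.1 points rest on the 100 bp limit, which does not treat the strands alike. The values for blunt joins, microhomology and insertions do not separate strand from position, whose part was not tested. Other reversals, with causes not tested, were -2.36 points for the share of a library without bait-window junctions, and -2.76 for AGCT with 20 bp as the limit. The Smu label difference was -0.118 with 1 line per position, strand and far end and -0.120 without reads holding a further bait copy, the latter 2 alternatives chosen after seeing the data. The upper end of site 2 gave 0.115 with 1 junction per position. Leaving out a library gave -0.434 to 0.354 for the Smu label, -2.88 to 5.61 for insertions, -3.95 to 0.581 for insertions between strands and -1.91 to 0.4002 for the upper end of site 2. Single libraries of 77 to 510 joins cannot show shares under the limits given for a count of 0.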
